A study of Strongylocentrotus purpuratus with 5 samples.

Results

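Accessible regions that stand close together along the genome were examined in whole 20 h blastula embryos of *Strongylocentrotus purpuratus*, the purple sea urchin. The assay was ATAC-seq, which inserts sequencing adapters by transposase wherever the DNA is open. A dense run was defined as at least 6 consecutive regions of the pooled 20 h list on one scaffold, with every gap between neighbours under 1000 bp. The members were thus selected on their measured positions alone, and the closeness of their regions is no finding. The rule found 8562 regions in 1341 runs, out of 258515 regions of the pooled list, or 3.31%. The other regions stood in groups of 2 to 5, with 159724 regions, or alone, with 90229.

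The 20 h stage had 3 libraries. Technical replicates 1 and 2 of biological replicate 1 came from nuclei made by a published preparation, and biological replicate 2 came from nuclei purified on a density gradient. The 12 h stage had 2 biological replicates, both from gradient nuclei, and entered only as 1 pooled list of 238838 regions. The study used different batches of embryos. The labels call both stages hatching blastula and give a growth temperature of 15 °C for all samples, with no genotype or treatment. Each list therefore blends the cell types of a whole embryo, and at 20 h preparation cannot be told apart from biological replicate. The lists hold positions and peak scores, in version 3.1 of the genome, and no read counts per region. By the read totals in the study's methods, 12 h was sequenced several times deeper than 20 h. By its quality report, replicate 2 was the shallowest 20 h library, and technical replicate 2 had the highest share of duplicate reads. The report also lists technical replicate 1 and the 12 h libraries as paired-end, and technical replicate 2 and replicate 2 as single-end.

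Transcription factors bound to enhancers and promoters displace nucleosomes, and the exposed DNA is what the transposase cuts. The regulatory DNA of a gene active in development can be spread over introns and flanking sequence, and a site can be open whether the factors on it activate or repress. Accessibility alone therefore does not show enhancer activity.

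A typical dense run was short, and a little less than 50% of the run DNA lay in called regions. The median span was 3882 bp, with quartiles of 3345 and 4436 bp, and spans ranged from 2202 to 10459 bp over the 1341 runs. Together the runs spanned 5284 kb, of which 46.3% lay in 20 h regions. Most runs sat at the lower limit of the rule. There were 956 runs of 6 regions, 281 of 7, 85 of 8, 15 of 9, 3 of 10 and 1 of 14. Just outside the rule stood 2755 groups of 5 regions with a median span of 3082 bp, against 3710 bp for the runs of 6. Of those groups, 115 missed the rule by a flanking gap less than 100 bp over the limit, and 330 runs met it with a widest inner gap no more than 100 bp under the limit.

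The median width of the regions in runs was 241 bp, against 258 bp in groups of 2 to 5. Lone regions were as narrow, with a median of 242 bp, and all regions outside runs together had 253 bp. The gap between neighbours had a median of 329 bp in runs and 371 bp in groups of 2 to 5, and gaps under 200 bp made up 33.5% and 30.3% of the gaps. From centre to centre the members of runs were a median of 634 bp apart. The smallest gap was 46 bp in both classes, and no region was narrower than 150 bp.

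The runs did not stand in the most crowded surroundings. Within 10 kb on both sides together, a run had 5.49 ± 2.62 further 20 h regions (SD over 1179 runs away from scaffold ends). Groups of 2 to 5 had 6.31 ± 2.55 and lone regions 6.45 ± 2.78. Counted in the 12 h list, the flanks held 6.45 ± 3.33 regions beside runs and 7.41 ± 3.29 beside groups of 2 to 5. The gap that ended a run had a median of 4319 bp, and the gap beside groups of 2 to 5 had 3176 bp.

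Long runs were scarcer than the mix of gaps alone would give. Of all gaps between 20 h regions on a scaffold, 42.3% were under 1000 bp. If the gaps of each scaffold stood in random order, the mean number of runs, calculated exactly, would be 1862, against the 1341 found. The ratio was 0.72 for runs and 0.68 for regions in runs. It fell with size, from 1.12 for groups of 4 and 1.06 for groups of 5 to 0.88, 0.62, 0.45 and 0.19 for runs of 6, 7, 8 and 9. The 12 h list gave the same direction, with 1436 runs against a mean of 1791 and a ratio of 0.80. These means come from the same lists and scaffolds and carry no test.

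**Figure D1:**
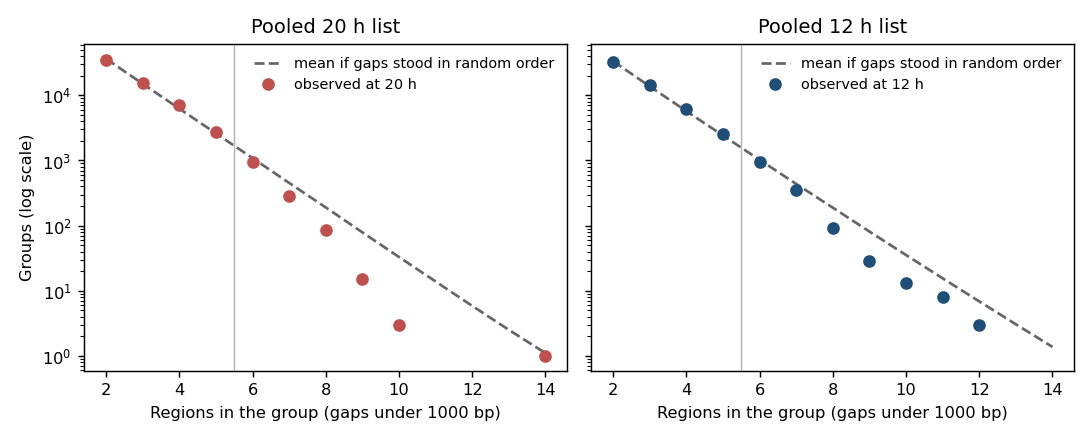
Number of groups (log scale) by the number of regions in the group, for the pooled 20 h list (left) and the pooled 12 h list (right). Points are observed groups (sizes with none are not drawn), dashed lines the exact mean if the gaps of each scaffold stood in random order, and the grey line marks the limit of 6 regions; points lie near the line up to 5 regions and below it from 6 to 10, with the run of 14 at 20 h near it.

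The same positions can be read gap by gap along the scaffolds, which restates the group sizes and is no separate observation. After a gap of 1000 bp or more, 42.4% of the next 20 h gaps were under 1000 bp, and after 1 short gap 43.9% were. After 3, 4 and 5 short gaps in a row the share was 37.6%, 33.7% and 29.6%. At 12 h the corresponding shares were 39.7%, 36.3% and 35.4%. Wilson intervals, where given, cover counting error only.

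**Figure D2:**
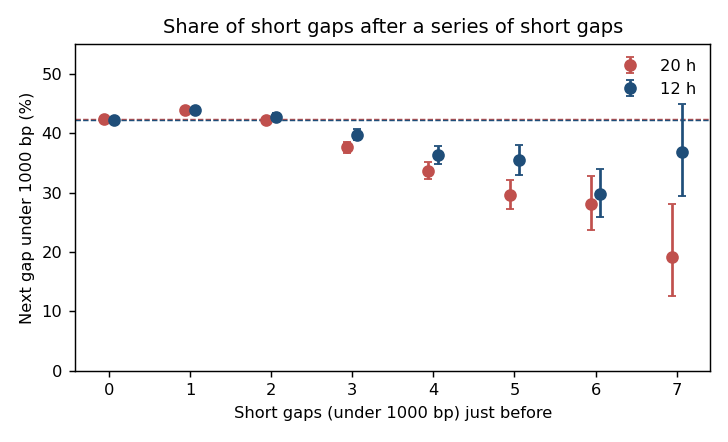
Share of gaps under 1000 bp by the number of short gaps just before, at 20 h (red) and 12 h (blue). Bars are Wilson 95% intervals and dashed lines the share over all gaps of each list, which nearly coincide at 42.3%; from 3 short gaps onward the 20 h share lies below its line, down to 19.2% after 7.

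The next question was whether the same stretch was also a dense run at 12 h. Of the 1341 runs, 158 overlapped a run made by the same rule in the 12 h list, or 11.8% (Wilson 95% interval 10.2 to 13.6). The overlap was nearly always broad, since 152 of these covered at least 50% of both runs, but no pair had the same bounds. Seen from 12 h, 158 of 1436 runs overlapped a 20 h run, a similarly small share. Most dense runs thus met the rule in 1 pooled list only. With 1 pooled list per stage, that has no replicate check. Within 20 h, 17.2%, 27.4% and 3.21% of the pooled runs overlapped a run of technical replicate 1, technical replicate 2 and replicate 2. These libraries went into the pooled list and held 1237, 1581 and 413 runs, so their shares are no like comparison with 12 h. The part of stage in the low overlap was not tested.

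Runs nevertheless met 12 h runs more often than smaller groups did. Of all 20 h regions, 2.34% touched the span of a 12 h run, against 11.3% of the regions in runs (966 of 8562) and 2.04% of those outside. The share of 20 h groups that overlapped a 12 h run was 1.72% for pairs, 4.16% for groups of 4, 5.99% for groups of 5, 9.73% for runs of 6, 14.9% for runs of 7 and 21.2% (13.8 to 31.0) for runs of 8. Longer groups have more bases to meet a 12 h run with. Measured per base, 11.9% of the span of runs lay inside 12 h runs, against 2.74% for groups of 2 to 5.

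At 12 h the run spans were covered by fewer and wider regions. A 20 h run of 6.38 regions on average held 3.57 regions of the 12 h list, with a median of 4 and a range of 0 to 13. Fewer 12 h than 20 h regions were found in 1259 runs, as many in 64 and more in 18. The rule chose these spans for at least 6 close regions in the 20 h list. A lower count in the 12 h list, which was not used for the choice, thus follows in part from the rule. The 12 h regions in run spans had a median width of 361 bp, against 325 bp in the whole 12 h list and 241 bp for the 20 h members. They covered 38.9% of the run span, against 46.3% at 20 h, and in 467 runs the 12 h regions covered more bases than the 20 h regions did. In groups of 2 to 5 the covered shares were 44.0% and 55.4%. The part of the deeper 12 h sequencing in these counts and widths was not tested.

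Sorted by the largest 12 h group that touched them, 52 runs had no 12 h region, 155 had a lone one, 264 a pair, 278 a group of 3, 253 a group of 4, 181 a group of 5 and 158 a 12 h run. A run that was not a run at 12 h was therefore rarely empty there.

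**Figure D3:**
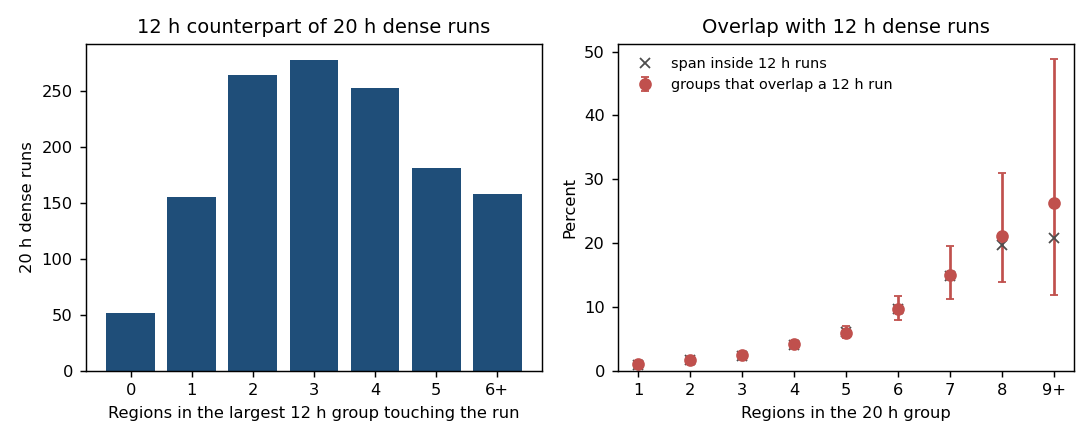
Left, number of 20 h dense runs by the size of the largest 12 h group that touches them. Right, share of 20 h groups that overlap a 12 h dense run (red points, with Wilson 95% intervals) and share of their span inside 12 h runs (grey crosses), by the number of regions in the 20 h group; the share is 1.04% for lone regions and 9.73% for runs of 6.

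A 20 h region that overlaps no 12 h region by at least 1 bp is called 20 h only. Over the whole 20 h list, 36.4% of regions were 20 h only. Inside runs the share was 35.0% (2998 of 8562), close to that background. The difference from regions outside runs was -1.42 points, with a 95% interval of -2.81 to -0.0366 that treats regions of one scaffold as dependent. Against groups of 2 to 5 the difference was 0.817 points (-0.576 to 2.21), and lone regions had the highest share at 40.4%. Among 273 scaffolds with at least 12 regions in runs, the share was lower in runs on 142 and higher on 131. The small difference from outside moved both ways with the processing. It was 0.122 points when an overlap counted only from 50% of the shorter region on and -0.0996 points without replicate 2. It was -3.43 points after standardising over region length, -4.03 points without technical replicate 1 and -3.89 points without technical replicate 2. The part of the depth gap between the stages in the share of 20 h only regions was not tested.

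Runs mixed both kinds of region. In 1102 runs some members were 20 h only and others overlapped a 12 h region, in 184 every member overlapped one and in 55 every member was 20 h only. The outermost members of runs were 20 h only in 37.1% (35.3 to 39.0) of cases and the inner members in 34.0% (32.8 to 35.3). These Wilson intervals treat members as independent, although outer and inner members share runs, so they do not test the difference. In the 158 runs that overlapped a 12 h run, 10.8% of members were 20 h only, a low share that the overlap itself brings about in part.

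Replicate support was slightly lower in runs. A region was counted as found in replicate 1 when either technical replicate had a peak there. Over the whole 20 h list, 34.4% of regions had a peak in both biological replicates, against 32.2% (2754 of 8562) in runs. The difference from regions outside runs was -2.34 points (-3.63 to -1.05), and against groups of 2 to 5 it was -3.24 points (-4.53 to -1.94). Since the pooled list was called on these libraries, support is a description and not a test. Among 273 scaffolds with at least 12 regions in runs, the share found in both replicates was lower in runs on 168 and higher on 105. The difference was -2.99 points with gaps under 500 bp and -3.20 points after merging regions within 100 bp. It depended on width and on the technical replicates. It was 0.354 points after standardising over region length, 0.0650 points without technical replicate 1 and -0.651 points without technical replicate 2.

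By library, technical replicate 1 had peaks at 64.8% of the members, technical replicate 2 at 74.5% and replicate 2 at 35.5%. Outside runs the shares were 64.3%, 77.9% and 37.8%. A peak in each of the 3 libraries was found for 16.7% of members and for 20.8% of regions outside. A typical run had 2 members found in both replicates. In 241 runs no member was found in both replicates, and in 7 runs every member was.

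Most pooled runs were not dense runs in any library taken alone. By the same rule, technical replicate 1 had 1237 runs, technical replicate 2 had 1581 and replicate 2 had 413. Of the 1341 pooled runs, 231 overlapped a run of technical replicate 1, 367 one of technical replicate 2 and 43 one of replicate 2. For 803 runs there was no run in any library, for 442 in 1, for 89 in 2 and for 7 in all 3. Technical replicate 2 holds 300000 peaks, the most the authors kept, and replicate 2 holds 160654, so that the libraries differ in how many neighbours they can show. The part of list length in these counts was not tested. In the technical replicates the number of runs was again below its mean under random gap order, which was 1715 and 2113. Replicate 2 was also below but lay close to its mean, with 413 runs against 440.5.

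Members of runs had lower fold enrichment than other regions, and the difference was greatest at its upper end. The fold enrichment is the peak caller's ratio of signal at the summit to the local background, taken at the best peak that overlaps a region. Members of runs have close neighbours through the rule, and the part of these neighbours in the local background was not tested. In technical replicate 1 its median was 2.90 in runs and 3.11 outside. In technical replicate 2 the medians were 2.82 and 2.997, and in replicate 2 they were 2.85 and 2.92. The groups most like runs were closer to them. Groups of 5 had medians of 2.99, 2.87 and 2.88 in the same order of libraries, and runs of 6 had 2.91, 2.84 and 2.88. Between runs and the rest, the medians differed by -0.066 ± 0.040 on the log2 scale (SD over n = 2 biological replicates), with -0.094 in replicate 1 and -0.038 in replicate 2. The difference kept its sign after standardising over region length, at -0.063 ± 0.015. In replicate 2 the median was 2.92 for lone regions, pairs and groups of 3 alike, so it resolves small differences poorly. With 2 replicates no exact test could reach significance.

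Regions of high fold enrichment were scarcer in runs in each library. A fold enrichment of at least 5 was reached by 2.78% of members with a peak in technical replicate 1, against 5.94% outside, a difference of -3.16 points (95% interval over scaffolds -3.68 to -2.64). In technical replicate 2 the shares were 2.52% and 5.94%, or -3.42 points (-3.90 to -2.94), and in replicate 2 they were 4.54% and 13.2%, or -8.71 points (-9.62 to -7.80). The 90th percentile of fold enrichment fell step by step from lone regions to runs of 7 in each library. In replicate 2 it was 6.45 for lone regions, 5.84 for pairs, 4.38 for groups of 5 and 4.27 for runs of 6. A q value below 0.05 was reached by 58.7%, 65.2% and 31.8% of the members with a peak, in the order of the libraries above, against 63.7%, 66.7% and 40.7% outside runs. A member with a fold enrichment of at least 5 was present in 130, 128 and 110 of the 1341 runs by library.

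**Figure D4:**
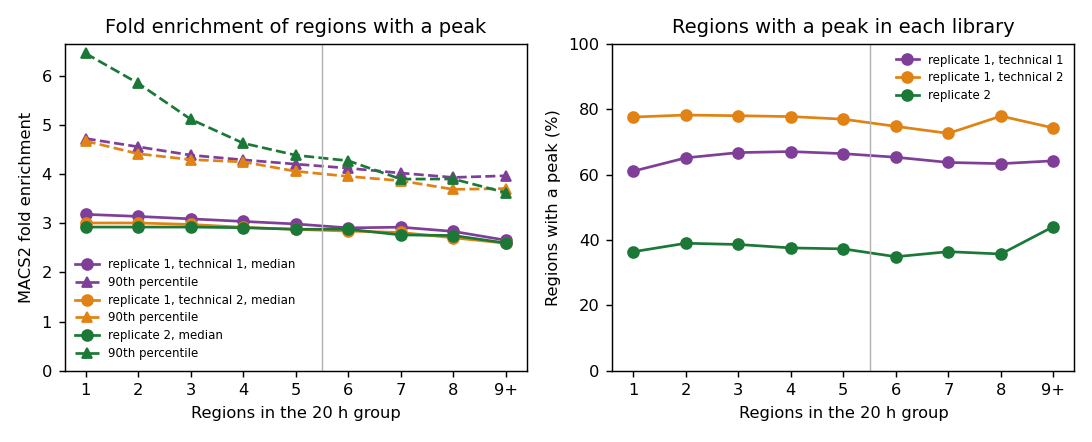
Left, median (circles) and 90th percentile (triangles) of the authors' fold enrichment over regions with a peak, in each of the 3 libraries of 20 h embryos, by the number of regions in the 20 h group. Right, share of regions with a peak in each library; the grey line marks the limit of 6 regions, and the 90th percentile of replicate 2 runs from 6.45 for lone regions to 4.27 for runs of 6.

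Strength within a run was compared among members with a peak only. Among runs with at least 3 members that had a peak in the library, the strongest member exceeded the median member by a median factor of 1.25 to 1.26 in the technical replicates and 1.24 in replicate 2. The highest factors were 2.96, 3.70 and 4.17 by library, over 1203, 1293 and 567 runs, and no other groups were compared. Which member was strongest was only partly repeatable. In runs where at least 3 members had a peak in both libraries, the technical replicates had the same strongest member in 331 of 816 runs, or 40.6% (Wilson 95% interval 37.2 to 44.0), against 27.7% if each such member were equally likely to be strongest. Replicate 2 shared its strongest member with technical replicate 1 in 37.7% of 260 runs and with technical replicate 2 in 36.5% of 367 runs, against 30.1% and 29.5%. Some members of a run had equal fold enrichments in a library, and the part of such ties in these shares was not tested.

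The longest run lay at the start of a short scaffold, scaffold 5891, from 144 to 10602, and held 14 regions over 10459 bp. Its regions were narrow, with a median of 180 bp and a range of 152 to 378 bp. Of the 14, 13 overlapped a 12 h region, and from 5056 to 10799 the 12 h list had a run of 8. Peaks were found at 8 members in each technical replicate and at 6 in replicate 2, with 1 member, from 7926 to 8303, found in all 3 libraries. Fold enrichments there were 2.45 and 2.82 in the technical replicates and 3.07 in replicate 2. The median over members was 2.65 in replicate 1 and 2.39 in replicate 2.

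Runs of 10 regions lay on scaffold 389 at 568194 to 575014, scaffold 1670 at 125175 to 130990 and scaffold 284 at 93123 to 97986. The run on scaffold 1670 was the best supported of these, with 7 of 10 members found in both replicates, each of its members overlapping a 12 h region and a median fold enrichment of 2.44 in replicate 1 and 2.96 in replicate 2. At 12 h that stretch held 4 regions covering 5087 bp, against 10 regions covering 3493 bp at 20 h. Scaffolds 389 and 284 had 4 and 5 members in both replicates, and 8 of 10 members over 12 h regions on each. None of these runs of 10 was a run at 12 h, where the largest groups were of 3, 4 and 5 regions.

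The 6 longest of the 15 runs of 9 regions lay on scaffold 16 at 18310 to 25412, scaffold 1104 at 16582 to 23048, scaffold 60 at 27998 to 34393, scaffold 441 at 404860 to 410978, scaffold 18 at 787726 to 793838 and scaffold 1802 at 53684 to 59699. They differed in support. On scaffold 1104, 6 of 9 members were found in both replicates, whereas on scaffold 60 replicate 2 had no peak at any of the 9. The fold enrichment of replicate 2 reached 6.92 at a member on scaffold 441, where its median was 4.53 over 3 members against 2.54 in replicate 1. No 12 h run overlapped any of these 6 runs.

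Of the 7 runs with every member found in both replicates, the 5 with the highest fold enrichment reached means between 2.78 and 3.59. The highest lay on scaffold 283 at 404306 to 408292, with 6 members and a median fold enrichment of 3.59 ± 0.457 (SD, n = 2 biological replicates). In replicate 2 its members ranged from 2.17 to 6.05, and the member from 406833 to 407342 had 6.05 there but 2.26 and 2.87 in the technical replicates. The others were on scaffold 425 at 341083 to 344827 with 3.004 ± 0.474, scaffold 742 at 105809 to 109468 with 2.99 ± 0.143, scaffold 1924 at 34476 to 37665 with 2.95 ± 0.672 and scaffold 335 at 342021 to 346741 with 2.78 ± 0.0735. Each had at most 1 member that was 20 h only. The run on scaffold 335, with 7 members, was the only one of these 5 to overlap a 12 h run, which had 6 regions from 341923 to 346765.

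Of the 55 runs made up of 20 h only regions, the 5 longest among those with 8 members are named here. They lay on scaffold 6634 at 205 to 5792, scaffold 270 at 114131 to 119322, scaffold 1162 at 112310 to 116949, scaffold 111 at 1443 to 5829 and scaffold 957 at 44889 to 49015, and the 12 h list had no region in any of these spans. Support was thin. Replicate 2 had no peak in the runs on scaffolds 270 and 111 and a peak at 1 member in each of the other 3. Technical replicate 1 had peaks at 2 to 7 members of these runs and technical replicate 2 at 5 to 7.

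At the opposite end, 76 runs had every member over a 12 h region and a 12 h run that covered at least 50% of both. The 5 with the most regions, with ties broken by span, lay on scaffold 183 at 545321 to 551247, scaffold 101 at 412229 to 417943, scaffold 3490 at 17188 to 22282, scaffold 334 at 104732 to 109707 and scaffold 333 at 183700 to 188436. On scaffold 183 the 9 members faced a 12 h run of 8 regions from 545336 to 551348, yet replicate 2 had no peak there. On scaffold 101 the 8 members stood in a longer 12 h run of 11 regions from 409809 to 417976. On scaffold 334 the 12 h run began at the same base, 104732. The runs on scaffolds 101, 3490, 334 and 333 had 4 or 5 of 8 members in both replicates. A shorter run of 8 regions, on scaffold 1117 at 407329 to 411914 and named here after its values were seen, had 6 of 8.

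Runs were spread over 935 of the 7795 scaffolds that had a 20 h region. On 663 scaffolds there was 1 run, on 186 there were 2, on 55 there were 3 and on 31 there were 4 or more. Scaffold 62 had the most, with 9 runs holding 57 of its 540 regions, or 10.6%, and 8 runs at 12 h. Scaffolds 101 and 351 followed with 6 runs and 41 regions in runs each, which was 12.9% and 26.3% of their regions, and with 4 and 2 runs at 12 h.

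Genes could be placed only through the positions of reporter-tested fragments that the study lists around 37 regulatory genes. Each locus was taken from its first to its last fragment with 5 kb added on both sides. Of the 800 regions at the loci, 19 lay in runs, or 2.38%, against 3.31% of all regions. Since these 19 regions make up only 3 runs, no interval is given and the shares are not told apart. In the same loci 21.1% of regions were 20 h only and 54.9% were found in both replicates, against 36.4% and 34.4% of all 20 h regions. The study's fragments were chosen mainly for sequence conservation, and the cause of these differences was not tested. Dense runs were found at 3 loci, *Not*, *FoxN23* and *Gsc*. At 4 further loci, *Dach*, *Fic*, *Prox* and *Tbx23*, named here after their values were seen, the largest group had 5 regions.

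*Not* encodes a homeodomain transcription factor that takes part in patterning the early embryo. Its run lay on scaffold 641 from 333576 to 338932, with 6 regions of 269 to 569 bp over 5357 bp, and 3 of the 6 overlapped a tested fragment. Every member overlapped a 12 h region, and the 12 h list had 6 regions in the span that stood in 1 run. The member from 337811 to 338379 was the strongest in each library, at 3.81 and 3.38 in the technical replicates and 4.29 in replicate 2. The first member, from 333576 to 334097, had 2.72, 2.81 and 3.98 in the same order, and the third, from 335554 to 336092, had 2.33, 2.27 and 3.22. The fourth, from 336870 to 337295, went the other way, with 3.04 and 2.87 in the technical replicates and 2.16 in replicate 2. The second, from 334543 to 334811, had 3.22 and 2.38 and no peak in replicate 2. The last, from 338523 to 338932, had 1.99 in technical replicate 2 and 3.64 in replicate 2, and technical replicate 1 had no peak there. Thus 5 of 6 members were found in both biological replicates, and this was the only locus run that was also a run at 12 h.

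*FoxN23* encodes a forkhead transcription factor of the network that specifies skeletogenic cells. Its run on scaffold 592, from 151599 to 155575, had 6 regions over 3977 bp, of which 4 overlapped a tested fragment. At 12 h the span held 5 regions that stood in groups of 3, and 2 members, from 153087 to 153240 and from 154606 to 154814, were 20 h only. Replicate 2 had a peak at all 6 members, from 2.53 to 3.21, and technical replicate 2 at 5 of them, from 2.15 to 2.61. Technical replicate 1 had a peak only at the first member, from 151599 to 151898, at 2.50. The support in replicate 1 thus rested on technical replicate 2. The scaffold held 5 dense runs in all.

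*Gsc* encodes the homeodomain repressor Goosecoid, which acts in oral ectoderm. Its run on scaffold 468, from 343544 to 347552, had 7 regions over 4009 bp, of which 6 overlapped a tested fragment. It was the least supported run of the 3 loci, since each member had a peak in a single library. Technical replicate 1 had a peak at 1 member, at 2.86, technical replicate 2 at 3 members, from 2.89 to 3.13, and replicate 2 at 3 other members, from 3.29 to 3.34. Of the 7 members, 4 were 20 h only. The other 3 overlapped 2 lone regions of the 12 h list, of which the one from 346205 to 346983 covered 2 members, from 346281 to 346430 and from 346583 to 346743.

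**Figure D5:**
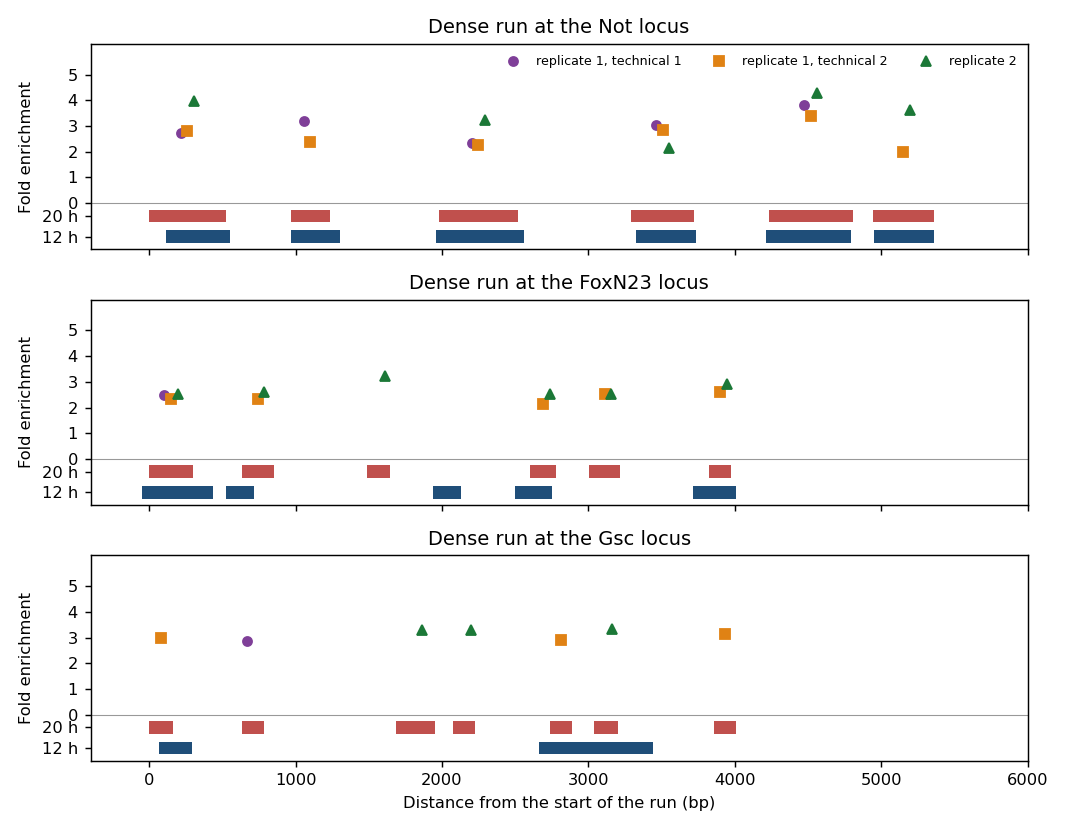
Dense runs at the Not, FoxN23 and Gsc loci, by distance from the start of the run in bp. Red bars are 20 h regions, blue bars 12 h regions, and points are the authors' fold enrichment of each 20 h region in each library, drawn side by side with an offset of 45 bp; a missing point means no peak, and at Gsc each region has a point from 1 library only.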

How the data were processed

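The authors mapped ATAC-seq reads to version 3.1 of the *S. purpuratus* genome with the ENCODE pipeline, removed duplicate and mitochondrial reads, and ran MACS2 (p threshold 0.05, at most 300000 peaks kept). Its version was not given in the sources used here. Per stage they deposited positions of regions from the pooled libraries, in which overlapping peaks had been joined. For each 20 h library they deposited peaks with fold enrichment, −log10 p, −log10 q and a score, which was not used. The 12 h libraries were not analysed singly here. Read counts per region were not used, so values have no depth-based error.

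Library peaks were merged where they overlapped or touched, each with the values of its best peak. Overlap meant at least 1 bp. The expected number of runs is the exact mean over all orders of the gaps of each scaffold. Shares have Wilson 95% intervals. Differences of shares have 95% intervals from a variance summed over scaffolds. Fold enrichments were summarised per library and averaged over technical replicates first. Standardised values use region length classes. With 1 pooled list used per stage, stages were compared without a test.

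Members, loci and comparisons were chosen with earlier results of these data known. Runs were named by rule, with ties broken by span. These were the 10 with the most regions, the 5 with the highest fold enrichment among runs fully found in both replicates, the 5 largest with 20 h only members, the 5 largest fully shared with a 12 h run, the 2 scaffolds with the most runs (a tie adds scaffold 351) and each locus with a run. Loci came from fragment positions in the study's supplement, of which no activity or signal was used. The functions were checked on simulated data. Alternatives were other gap and size limits, prior merging, stricter peaks, other overlap rules and leaving out each library. Python 3.11.15, numpy 2.4.6 and pandas 2.3.3 were used.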

Additional observations from a re-analysis of the deposited data

How the results depend on the processing

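The number of dense runs follows the rule by construction. The 1341 runs became 243 with gaps under 500 bp, 6030 with gaps under 2000 bp, 4096 with at least 5 regions, 104 with at least 8, 775 after merging regions within 100 bp, 297 at −log10 p of at least 3 and 560, 422 and 998 without technical replicate 1, technical replicate 2 and replicate 2. The share that overlapped a 12 h run, 11.8%, was 4.53%, 33.6%, 19.2% and 6.73% under the first 4 of these, 17.8% for the stricter peaks and 15.2%, 14.7% and 12.3% without the libraries in that order. In each of these settings the runs stayed below their mean under random gap order, at ratios from 0.32 to 0.95. The 20 h only difference of -1.42 points was -3.43 after standardising over length, 0.122 with overlap of 50% of the shorter region and -4.03, -3.89 and -0.0996 without the libraries in that order. The support difference of -2.34 points was -2.99 with gaps under 500 bp and -3.20 after merging regions within 100 bp. It was 0.0322 with at least 8 regions, -0.250 for the stricter peaks and 0.354 after standardising over length. Without each technical replicate of replicate 1 it was -0.651 to 0.0650, and without replicate 2 it has no value. The log2 ratio of fold enrichment was negative in each setting tried, at -0.136 with at least 8 regions, -0.020 for the stricter peaks and -0.097 to -0.068 without each library. For these shifts the cause was not tested. The share of regions in runs at the gene loci was 2.00 to 2.81% with other locus limits. No paired analysis was possible between the stages because no single 12 h library was analysed here, while runs and other regions of 20 h were compared within each library. Sequencing depth differs between stages and between the 20 h libraries and was not equalised, which limits what the absence of a region shows.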
